A study of Homo sapiens with 7 samples.

Results

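The comparison of 5-Aza-CdR with PBS used 4 of the 7 libraries of a J2 double-stranded RNA sequencing series in HCT116, a human colon carcinoma cell line. The 4 libraries were chosen by their treatment labels. One PBS and one 5-Aza-CdR library came from each of 2 workbooks, called set 1 and set 2 here, and each treated library was compared with the PBS library of its own set. Treated cells received 0.3 µM 5-Aza-CdR, the medium was replaced after 24 h and the cells were kept until day 5. The PBS libraries are the untreated controls of the same line. Lysates of all libraries were digested with RNase T1, which cuts single-stranded RNA, and precipitated with the J2 antibody. The other 3 libraries (2 Combination, 1 Vc) entered the joint tests to share the estimate of the spread. Combination is 5-Aza-CdR with vitamin C, and Vc is vitamin C alone. They also took part in the read filter, the scaling and the set term of those tests. Whether libraries with the same treatment stem from different cultures is not given in the labels, so p-values measure only the spread between these libraries, which may be technical. The files count reads on endogenous retrovirus (ERV) repeats alone, so the HCT116 label could not be checked against marker genes.

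5-Aza-CdR (decitabine) is a cytidine analogue that is built into DNA and traps DNA methyltransferases, so that methylation is lost as cells divide. ERV long terminal repeats (LTRs) carry promoters that are methylated in most adult cells, and LTRs that are transcribed from both strands or fold back can give double-stranded RNA. The J2 antibody binds long double-stranded RNA largely regardless of sequence, and the cytosolic sensor MDA5 recognises such RNA.

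The deposited counts covered 500 ERV families and 703140 annotated copies (single repeat intervals on hg19) that both sets list. Reads assigned to families numbered 23131 in the PBS and 11531 in the 5-Aza-CdR library of set 1, and 19450 and 23528 in set 2. The PBS library of set 1 stood apart. Of its 6080 copies with reads, 39.4% held exactly 1 read, against 73.7% to 79.0% in the other 3 libraries. It had 3.79 reads per copy with reads once HERVE_a-int and MER11B were left out, against 1.53, 1.74 and 1.90 elsewhere. A single HERVE_a-int copy on chromosome 6 (4428317 to 4428782) held 106889 reads, 80.3% of the reads counted at copies in that library, and 22762 reads, 58.3%, in the 5-Aza-CdR library of set 1. In set 2 the same copy held 8 and 7 reads. The family table of set 1 lists HERVE_a-int at 0 and has no row for MER11B, so family shares of that set leave out both. Treatment of duplicate reads and of reads with several matches is not given in the sources used here for set 1. Values are therefore given by set, and joint results that change without a PBS library are also given without it. In those fits the remaining PBS library is assumed to vary like the other groups, so passing a threshold there is not added support. A higher share of one family and a lower share of the others cannot be told apart from shares alone.

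LTR12 and HERV9 families, the LTRs and internal regions of one ERV group, took a larger share of the double-stranded RNA reads after 5-Aza-CdR in both sets. The group held 602 of 23131 family reads in the PBS and 2133 of 11531 in the treated library of set 1, which is 2.60% and 18.5%. In set 2 it held 1107 of 19450 and 5933 of 23528 reads, which is 5.69% and 25.2%. The ratio of the shares was 7.11 (95% interval 6.49 to 7.79) in set 1 and 4.43 (4.15 to 4.73) in set 2. All intervals on ratios and shares cover counting error only. Over the same libraries the share of the MaLR families (THE1, MST and MLT1), older and non-autonomous LTR elements, was lower after treatment, at 47.0% and 35.9% in set 1 and 39.2% and 28.5% in set 2.

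**Figure D1:**
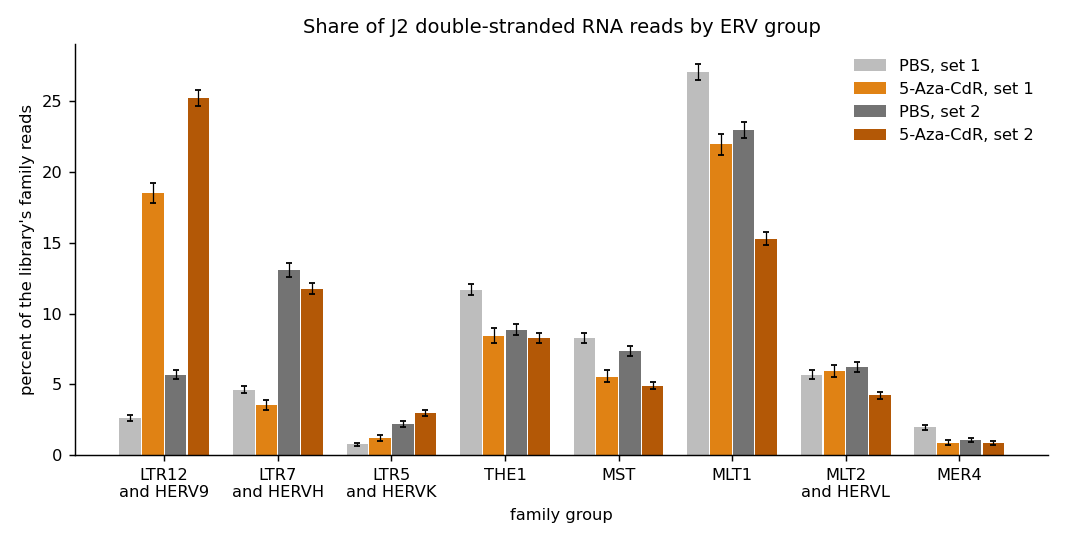
Percent of each library's family reads held by 8 groups of ERV families, one bar per library, with 95% Wilson intervals (counting error only). The LTR12 and HERV9 bars are 2.60% and 5.69% in PBS and 18.5% and 25.2% after 5-Aza-CdR, while the MST and MLT1 bars are lower after 5-Aza-CdR in both sets.

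LTR12C held most of the group's reads after treatment. The PBS and the treated library of set 1 had 286 and 1807 LTR12C reads, and those of set 2 had 851 and 5130. Both treated libraries were above both PBS libraries in reads, and per family read the ratio was 12.7 (11.2 to 14.4) in set 1 and 4.98 (4.63 to 5.36) in set 2. LTR12C rose in edgeR's quasi-likelihood test over all 7 libraries with the set as a block, at a log2 change of 3.16 (SE 0.51, adjusted p = 0.0085). Background for that test was 1.42% of 352 families tested called higher and 0.00% called lower.

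The closest relatives of LTR12C by name gave smaller changes. LTR12 held 33 and 84 reads (set 1) and 25 and 97 reads (set 2), and rose with a log2 change of 2.22 (SE 0.34, adjusted p = 0.0085). LTR12E held 7 and 20 reads (set 1) and 13 and 62 reads (set 2), and rose with a log2 change of 2.43 (SE 0.43, adjusted p = 0.0125). LTR12_ held 18 and 45 reads (set 1) and 34 and 69 reads (set 2), with a log2 change of 1.68 (0.84 to 2.53, adjusted p = 0.056), which missed the threshold of 0.05 but passed it when either PBS library was left out. In all, 3 of the 8 families of the group rose and none fell, 7 were higher in both sets, and the median log2 change was 1.95, against -0.02 over all 352 families.

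The other members of the group had smaller ratios or fewer reads. HERV9-int, the internal region that lies between these LTRs in full proviruses, held 117 and 84 reads (set 1) and 90 and 270 reads (set 2), which is 1.44 (1.08 to 1.92) and 2.48 (1.95 to 3.18) per family read. LTR12D held 108 and 77 reads (set 1) and 83 and 257 reads (set 2), with nearly the same ratios of 1.43 (1.05 to 1.93) and 2.56 (1.99 to 3.32). Neither passed the joint test (adjusted p = 0.235 for both). LTR12B held 5, 6, 2 and 22 reads in PBS and 5-Aza-CdR of set 1 and then set 2. LTR12F was the one member without a common direction, with 28 and 10 reads (set 1) and 9 and 26 reads (set 2). Their log2 changes depended on the PBS library. Without that of set 1, HERV9-int (1.76), LTR12D (1.78) and LTR12B (3.56) rose. Without that of set 2 none of these passed, with 0.51 for HERV9-int (adjusted p = 0.0795), 0.55 for LTR12D (adjusted p = 0.06) and an adjusted p of 0.323 for LTR12B.

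**Figure D2:**
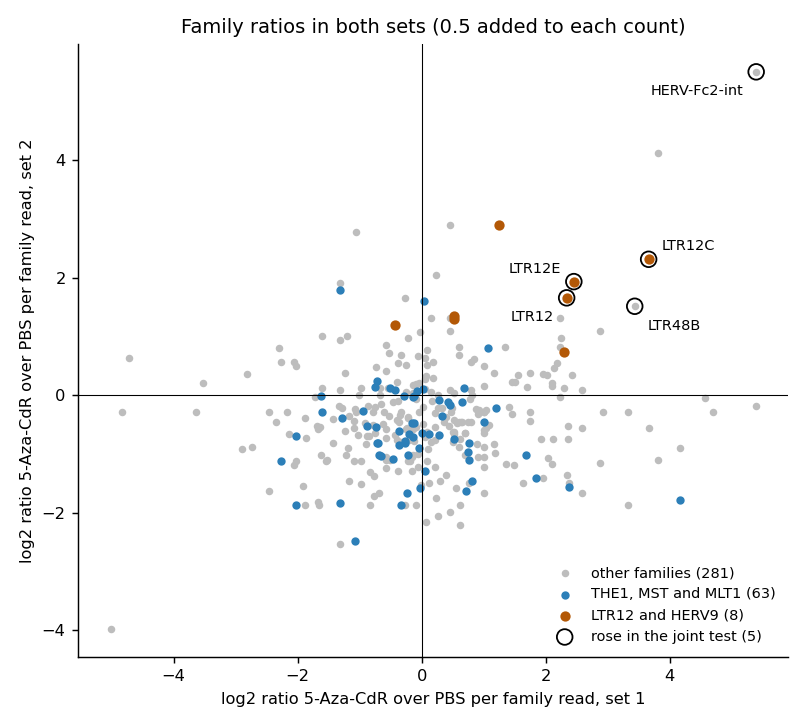
Each point is one of 352 families tested, placed by its log2 ratio of 5-Aza-CdR to PBS per family read in set 1 (horizontal) and set 2 (vertical), with 0.5 added to each count. The 5 circled families rose in the joint test and lie in the upper right; 59 families were higher and 134 lower in both sets.

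Besides LTR12, LTR12C and LTR12E, 2 families rose. HERV-Fc2-int, the internal region of a low-copy provirus with 3 listed copies, had no read in either PBS library and 10 and 27 reads after 5-Aza-CdR. Against a floor of 3 counts per library this is at least 6.69-fold higher in set 1 and at least 7.44-fold higher in set 2 (adjusted p = 0.00597). With no PBS read, HERV-Fc2-int could pass the read filter only through other libraries. It could not have been called lower. HERV-Fc1-int showed the same pattern at lower depth, with 0 and 3 reads (set 1) and 0 and 10 reads (set 2), and did not pass the test (adjusted p = 0.0933). LTR48B held 7 and 40 reads (set 1) and 6 and 22 reads (set 2), and rose with a log2 change of 2.81 (SE 0.53, adjusted p = 0.0197). Its rise in set 1 lay at 1 copy on chromosome 6 that held 36 of the 40 treated reads.

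Over all families, 5 rose and none fell (44 had an unadjusted p under 0.05, and DESeq2 called the same 5). The count was 39 without the PBS library of set 1 (28 rose, 11 fell), 75 without that of set 2 (38 rose, 37 fell), 1 without the 5-Aza-CdR library of set 1, 7 without that of set 2 (5 rose, 2 fell) and 10 without the second Combination library (7 rose, 3 fell). All 5 families had log2 changes above 0 without either PBS library, the lowest being 2.08 for LTR48B without that of set 1. Those fits hold 1 PBS library, so they do not measure the spread within PBS. Without the 5-Aza-CdR library of set 1 HERV-Fc2-int alone stayed past the threshold, and without that of set 2 HERV-Fc2-int, LTR12 and LTR48B did. HERV-Fc2-int had no PBS read and could only be called higher. No family passed the threshold when edgeR was fitted to the 4 PBS and 5-Aza-CdR libraries alone (17 had an unadjusted p under 0.05). Per family read, 59 of the 352 families tested (16.8%) were higher after treatment in both sets and 134 (38.1%) were lower in both.

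Families of the HERV-K, HERV-H, HERV-W and HERV-E groups did not pass the test with all libraries. LTR5_Hs, the LTR of the youngest HERV-K (HML-2) copies, held 58 and 44 reads (set 1) and 274 and 588 reads (set 2), with a log2 change of 0.94 (SE 0.34, adjusted p = 0.242). HERVH-int, the internal region of the HERV-H group, held 832 and 262 reads (set 1) and 2324 and 2539 reads (set 2), and its share was lower after treatment in both sets. LTR7Y, a HERV-H LTR, held 9 and 22 reads (set 1) and 11 and 27 reads (set 2) (log2 change 1.83, adjusted p = 0.155). HERV17-int, the internal region of HERV-W, held 48 and 23 reads (set 1) and 58 and 81 reads (set 2). HERVK3-int held 28 and 64 reads (set 1) and 45 and 80 reads (set 2) (log2 change 1.54, adjusted p = 0.0798). None of the 6 LTR7 and HERVH, 4 LTR5 and HERVK, 20 other HERVK or 5 LTR2 and HERVE families tested rose or fell with all libraries. Log2 changes depended on the PBS library. Without that of set 1 they were 1.29 for LTR5_Hs, 1.55 for LTR7Y, 1.07 for HERVK3-int, 0.62 for LTR13, 0.83 for LTR13A and -0.89 for LTR5A. Without that of set 2 they were 0.53 for LTR5_Hs, 2.16 for LTR7Y, 2.10 for HERVK3-int, -0.04 for LTR13, 1.18 for LTR13A and -0.21 for LTR5A. HERVE-int had 0.65 without that of set 1 and 2.17 without that of set 2.

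No family fell in the joint test with all libraries, while 11 fell without the PBS library of set 1, 37 without that of set 2 and 5 with total reads as library size. MSTB2, a MaLR LTR, came nearest, with 86 and 20 reads in set 1, 191 and 41 in set 2 and a log2 change of -1.64 (SE 0.37, adjusted p = 0.0553). Its log2 change was -2.04 without the PBS library of set 1 and -1.11 without that of set 2. LTR4 held 32 and 0 reads (set 1) and 6 and 0 reads (set 2), which is at least 5.32-fold lower in set 1 and at least 2.42-fold lower in set 2 (adjusted p = 0.0774). Among the 63 MaLR families tested, 33 were lower in both sets and 4 were higher, beside 38.1% and 16.8% of all families tested, with a median log2 change of -0.12 against -0.02 over all families. The MST share had a ratio of 0.67 in both sets (0.62 to 0.74 and 0.62 to 0.72). The MaLR families called without the PBS library of set 1 were 5 higher and 6 lower, and without that of set 2, 6 higher and 12 lower. The MER4 families, 8 of 11 of them lower in both sets beside the same 38.1%, had ratios of 0.46 (0.36 to 0.57) and 0.79 (0.65 to 0.96). These ratios depend on the scale. The authors give ratios of family reads to tRNA reads for set 1 only. The tRNA reads back-calculated from these ratios were 232558 in PBS and 38200 after 5-Aza-CdR. Scaled by tRNA reads, the median family with 100 or more reads moved from -0.21 to 1.39 on the log2 scale. Of 75 such families, 50 were higher by 2-fold or more and 3 lower, in place of 7 and 11 per family read (9.33% and 14.7%). In set 2, 4 of 86 passed that fold upward and 11 downward per family read (4.65% and 12.8%).

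Breadth, the number of copies of a family with 1 or more reads, was greater for LTR12C after 5-Aza-CdR in both sets. Of 2656 listed copies, 109 in the PBS and 744 in the treated library of set 1 had reads, which is 4.10% and 28.0%. In set 2, 520 and 1368 copies had reads, which is 19.6% and 51.5%. The share of copies with reads was higher after treatment on 24 of 24 chromosomes in both sets. The treated libraries held more LTR12C reads, and the chromosomes were not compared at equal depth or for other families. On the 22 chromosomes with at least 20 LTR12C copies it ran from 20.9% to 44.7% in the treated library of set 1 and from 28.6% to 68.0% in that of set 2, against at most 7.58% and 30.4% in PBS. LTR12 went from 11 to 60 and from 21 to 65 of 756 copies, LTR12E from 3 to 13 and from 12 to 33 of 112, and LTR12D from 11 to 45 and from 33 to 80 of 477.

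**Figure D3:**
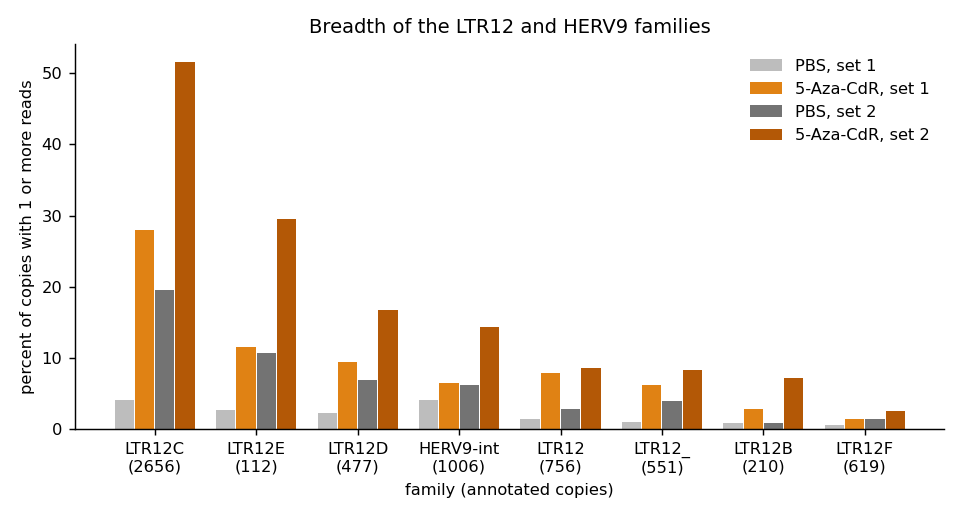
Percent of annotated copies with 1 or more reads for the 8 LTR12 and HERV9 families in the 4 libraries (copies listed in parentheses, copy widths not adjusted for). LTR12C reached 28.0% and 51.5% after 5-Aza-CdR, and each family's 5-Aza-CdR bar is above the PBS bar of its set.

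The same joint test on the number of copies with reads, in place of reads, was added after the data had been seen. It called 5 of 274 families higher (1.82%) and none lower (0.00%), with 23 at an unadjusted p under 0.05, and all 5 were LTR12 families. These were LTR12 (log2 change 1.90, adjusted p = 0.000148), LTR12C (1.87, adjusted p = 0.00112), LTR12D (1.45, adjusted p = 0.00457), LTR12_ (1.47, adjusted p = 0.0107) and LTR12E (1.52, adjusted p = 0.0401). These calls depend on the libraries fitted. The count was 10 without the PBS library of set 1 and 15 without that of set 2, 0 without the 5-Aza-CdR library of set 1, 1 without that of set 2, 3 without the first Combination library and 0 without the second. At an unadjusted p under 0.05 the zero counts were 8 and 17 families.

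More reads reach more copies, so breadth was also computed with the library of the pair that had more reads of a family thinned to the read count of the other. With 851 LTR12C reads in each library of set 2, 527.8 copies had reads after 5-Aza-CdR against 520 in PBS, a ratio of 1.02 in place of 2.63. In set 1 the equal-depth values were 182.1 and 109, a ratio of 1.67 in place of 6.83. At equal numbers of LTR12C reads the treated library of set 2 thus spread them over nearly the same number of copies as its PBS library. For all families outside LTR12 and HERV9, 5893 and 6546 copies had reads in set 1 and 10467 and 10562 in set 2, ratios of 1.11 and 1.01. At equal depth these were 2.12 in set 1 and 1.04 in set 2. The value of set 1 does not match depth outside the HERVE_a-int copy with 106889 PBS reads. With HERVE_a-int and MER11B left out before thinning, an alternative added after seeing the data, 9345 reads in each library of set 1 lay on 3903 copies in PBS and 6530 after treatment, a ratio of 1.67, and the ratio of set 2 was 1.04. The PBS library of set 1 is the one with most reads per copy, and its part in this ratio was not tested.

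**Figure D4:**
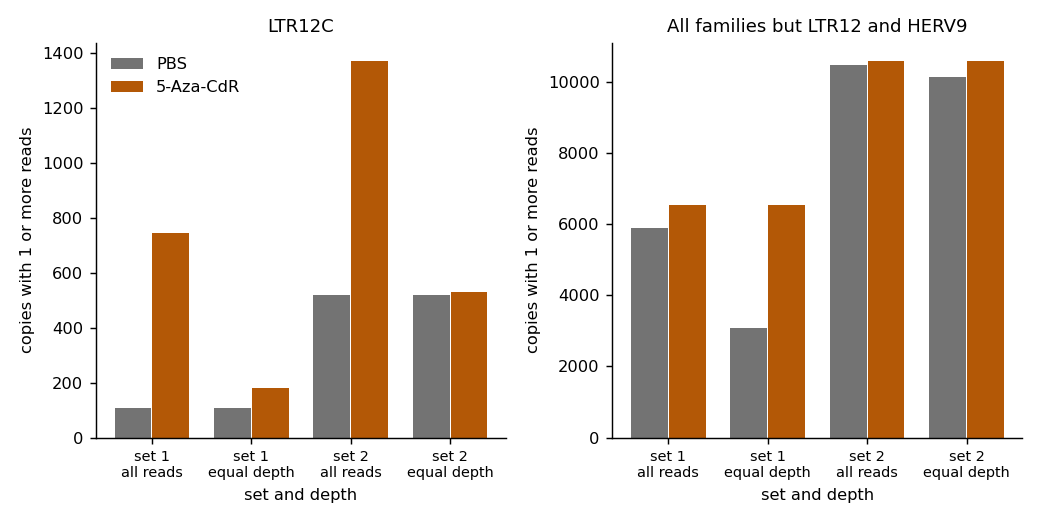
Copies with 1 or more reads in PBS and 5-Aza-CdR libraries, for LTR12C (left) and for all families but LTR12 and HERV9 (right), with all reads and at equal read counts within a set. For LTR12C in set 2 the bars are 520 and 1368 with all reads and 520 and 527.8 at equal depth. The equal-depth bars of set 1 on the right include the HERVE_a-int copy, so depth elsewhere is not matched there.

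The number of LTR12C copies with 5 or more reads went from 13 to 43 in set 1 and from 14 to 313 in set 2. The most-read copies that together held 50% of the LTR12C reads numbered 15 and 95 in set 1 and 116 and 206 in set 2. Copies without a PBS read of the same set held 68.7% of the treated LTR12C reads in set 1 and 56.7% in set 2. This was not particular to LTR12C. Among HERVH-int, LTR5_Hs, THE1B, MLT1C, MSTA and MLT1D, the share ran from 66.8% (HERVH-int) to 91.7% (THE1B) in set 1. In set 2 it ran from 27.3% (HERVH-int) to 87.7% (THE1B). Of the copies with PBS reads, 56 of 109 in set 1 and 399 of 520 in set 2 also had reads after treatment.

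Many LTR12C copies were read in both treated libraries. Reads lay on 559 copies in both, which is 75.1% of the copies read in set 1 and 40.9% of those in set 2. For all other families 1103 copies had reads in both treated libraries, 16.3% and 10.1%. The corresponding shares for the PBS libraries were 41.3% and 8.65% of LTR12C copies and 17.3% and 9.70% of the copies of other families. These shares depend on the reads per copy, and no test was made of their difference. Of the 559 copies, 339 had no read in either PBS library, and the matching share for other families is not given here. Read counts, not scaled by depth, were higher after treatment in both sets at 509 LTR12C copies and lower in both at 8. Both treated libraries held more LTR12C reads in total, so this order follows in part from the family's reads. The matching counts for other families are not given here. Across the 1553 copies read in at least one treated library, Spearman's rho between the 2 treated read counts was 0.10, as a description over copies that share libraries and have a median of 1 and 2 reads where read. Copies read in neither treated library were left out, which can lower this value.

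Copies read in both treated libraries were wider than copies with no read in any of the 4 libraries. The median width was 1458 bp for the 559 copies and 1381.5 bp for the 988 copies without reads, and 97.5% and 78.7% of them were at least 1000 bp wide. The share of copies with reads after treatment was 8.92% and 19.2% for copies under 500 bp and 36.1% and 60.1% for copies of 1500 bp or more in sets 1 and 2. Per kb of annotated copy the order differed. Copies under 500 bp had 0.46 and 1.85 reads per kb after treatment and copies of 1500 bp or more had 0.77 and 1.78. The strand was nearly even in both classes, with 51.0% and 51.2% on the plus strand. A copy of the opposite strand lay within 10 kb for 2.50% of the 559 copies and 5.06% of the 988.

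Reads within a family were less concentrated on its most-read copy after 5-Aza-CdR in set 1, and less clearly in set 2. Among 47 families with at least 50 reads at copies in each of the 4 libraries, the median share of the first copy was 12.6% in PBS and 5.45% after treatment in set 1, and 10.8% and 7.69% in set 2. It was lower after treatment in 41 of 47 families in set 1 and in 31 in set 2, lower in both sets in 26 and higher in both in 1, LTR13, a HERV-K LTR, with 14.6% and 28.7% in set 1 and 12.9% and 18.1% in set 2. The first 10 copies together held a median of 55.7% and 31.8% in set 1 and 38.8% and 35.1% in set 2. The effective number of copies (the inverse of the summed squared shares) had medians of 21.1 and 46.6 in set 1 and 35.6 and 40.2 in set 2. The size of the difference in set 1 goes with the 3.79 reads per copy of its PBS library, and the part of that library in it was not tested.

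**Figure D5:**
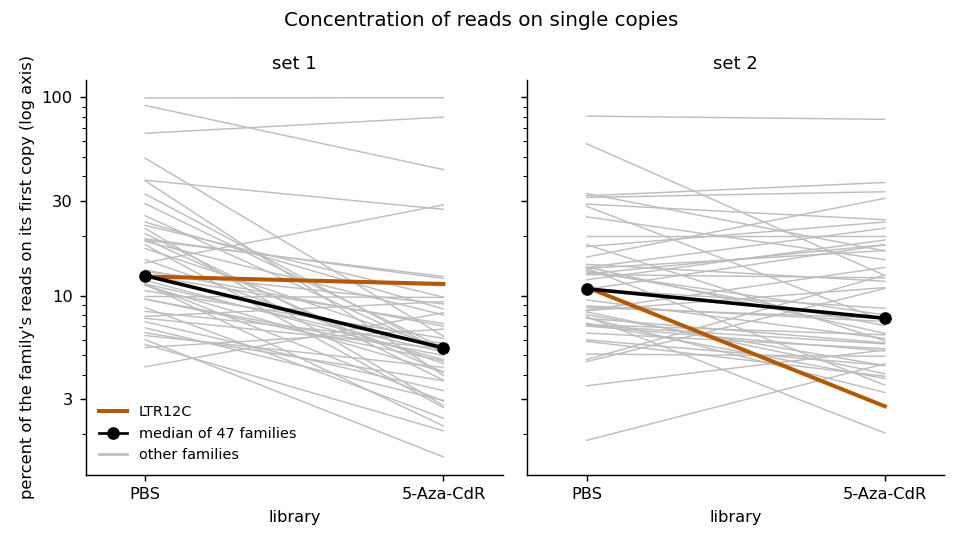
Percent of a family's reads on its most-read copy in PBS and 5-Aza-CdR libraries (log axis), one line for each of 47 families, with LTR12C and the median marked. The median goes from 12.6% to 5.45% in set 1 and from 10.8% to 7.69% in set 2.

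LTR12C differed between the sets in this measure. Its first copy held 12.5% of its reads in PBS and 11.5% after treatment in set 1, and 94 of 851 and 142 of 5130 reads in set 2, while the effective number of copies went from 28.0 to 46.6 and from 68.0 to 302.0. The most-read copies differed by set. The copy on chromosome 18 (9296674 to 9298314) held 34 and 205 reads in set 1 and none in set 2, and the copy on chromosome 7 (22129778 to 22131305) held 7 and 138 reads in set 1 and none in set 2. A copy on chromosome 10 (74060187 to 74061778) did the reverse, with 0 and 1 reads (set 1) and 94 and 101 reads (set 2). The copy on chromosome 1 (175070212 to 175072001) was high after treatment in both sets, with 7 and 40 reads (set 1) and 0 and 142 reads (set 2).

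Single copies also carried much of the lower families. MSTB2 reads lay on different copies in the 2 sets. A copy on chromosome 2 (159941587 to 159941898) held 52 and 1 reads in set 1 and none in set 2, and a copy on chromosome 5 (862748 to 862918) held none in set 1 and 170 and 27 in set 2, which was 89.0% and 65.9% of the family. An MLT1A1 copy 1775 bp away (860625 to 860972) held none in set 1 and 121 and 10 in set 2. MLT1F1 held 852 and 104 reads in set 1, of which 777 and 45 lay on 1 copy on chromosome 5 (36221359 to 36221589), and 84 and 63 in set 2. Its first copy thus held 91.2% and 43.3% of the family in set 1 and 7.1% and 6.3% in set 2.

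The joint test over single copies covered 409 copies with at least 30 reads over the 7 libraries. It called 96 higher (23.5%) and 27 lower (6.60%), and the median tested copy had a log2 change of 0.32. LTR12C accounted for 69 of the 96, out of 104 LTR12C copies tested, with none lower. The read minimum counts 5-Aza-CdR and Combination reads, so copies read only there could enter the test. The share of LTR12C copies called higher and the lack of lower ones therefore partly follow from that choice. With the 4 PBS and 5-Aza-CdR libraries alone, 16 LTR12C copies were tested and 5 were higher. The same minimum was applied to the reads of those 4 libraries, so treated reads again decided in part which copies entered. The other families had 27 higher and 27 lower of 305. Per family read, 82 of the 96 were higher in both sets and 15 of the 27 were lower in both. The count of 123 depends on the libraries fitted. It was 69 without the PBS library of set 2, 4 without the 5-Aza-CdR library of set 1, 6 without that of set 2, 4 and 16 without the first and the second Combination library, 13 by DESeq2 and 9 with the 4 libraries alone, and 99 without the PBS library of set 1.

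Copies gained were defined as having no read in PBS and at least 5 after 5-Aza-CdR of the same set, and copies lost by the reverse. Set 1 had 70 gained copies (0.548% of the 12764 copies with reads in either library) and 920 lost (7.21%). Set 2 had 284 gained (1.39% of 20482) and 57 lost (0.278%). The order of gained and lost was thus opposite in the 2 sets. LTR12C held 31 of the 70 and 167 of the 284 gained copies, and 3 of the 920 and 0 of the 57 lost ones. Beside this, LTR12C made up 744 of the 7523 copies with reads after treatment in set 1 and 1368 of 12330 in set 2. In PBS it made up 109 of 6080 and 520 of 11148. The lost copies of set 1 were spread over MLT1A0 (46), THE1B (34), MLT1D (33), MSTA (30), MLT1C (29) and many other families. These counts were not set against the number of copies with reads in each family. The PBS library of set 1 was the one with most reads per copy, and its part in the 920 was not tested.

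Gained in both sets were 13 copies, 10 of them LTR12C. The LTR12C copy on chromosome 4 (88316262 to 88317662, minus strand) held 19 and 20 treated reads, at least 12.7-fold higher in set 1 and at least 5.51-fold higher in set 2 (adjusted p = 4.9e-05 in the joint test). The same counts defined the gain, so this value and the adjusted p of the MLT1C copy below are not separate support. Those on chromosomes 15 (70878531 to 70880069), 6 (36330912 to 36332572) and 12 (8947139 to 8948723) held 10 and 15, 11 and 13, and 6 and 19 treated reads. The other 3 copies were of other families. An MLT1C copy on chromosome 2 (242486123 to 242486533, plus strand) held 21 and 44 treated reads, which is at least 14.0-fold higher in set 1 and at least 12.1-fold higher in set 2 (adjusted p = 1.3e-05). A LTR48B copy on chromosome 6 (27106003 to 27106594) held 36 and 6. A HERV-Fc2-int copy on chromosome X (97096856 to 97104052, 7197 bp, plus strand) held 6 and 21 of the 10 and 27 reads of its family. The Combination libraries, which the definition did not use, also received 5-Aza-CdR and are thus not a condition without the drug. All 13 copies had reads in both of them, against 42.0% of the 1662 copies with reads in both 5-Aza-CdR libraries. Copies that held at least 5 treated reads differ from those in read number, so the shares are given as a description.

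Lost in both sets were 2 copies, an MLT1D copy on chromosome 7 (6792674 to 6792849) with 5 and 5 PBS reads and an MLT1B copy on chromosome 12 (46863764 to 46864106) with 5 and 7. Among the copies called lower were a THE1D and an LTR7 copy whose reads lay almost wholly in the PBS library of set 1. That library had most reads per copy. Set 2 had 1 PBS read at each, so these calls rest on set 1. The THE1D copy on chromosome 2 (186839091 to 186839260) held 234 and 2 reads (set 1) and 1 and 0 reads (set 2) (adjusted p = 0.00246). The LTR7 copy on chromosome 1 (68851687 to 68852120) held 23 and 0 reads (set 1) and 1 and 0 reads (set 2) (adjusted p = 0.0473). It lies 705 bp from the HERVH-int copy (68852826 to 68855367) that held 161 and 32 reads (set 1) and 169 and 97 reads (set 2) (adjusted p = 0.446). Without the PBS library of set 1, 26 of 239 tested copies outside LTR12C were called higher and 11 lower.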

How the data were processed

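Per the labels, lysates of HCT116 cells were digested with RNase T1, precipitated with the J2 antibody, treated with DNase and sheared, and libraries were made with a small RNA kit. The deposited values are raw read counts per ERV family and per annotated repeat copy, 1 column per library, on hg19. Per the file headers, set 1 also holds the ratio of family reads to tRNA reads, made by the authors. For set 2, Bowtie2 and Picard are named per the submitters' processing notes, without versions. The aligner and counter of set 1, and how reads with several matches were counted, are not given in the sources used here.

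Family counts were tested with edgeR 4.0.16 (quasi-likelihood test, TMM, filterByExpr, treatment and set as terms, all 7 libraries, Benjamini-Hochberg, threshold 0.05; R 4.3.3), and copies with at least 30 reads likewise. Ratios within a set use family reads as the denominator, with exact 95% intervals that cover counting error only, and 0.5 was added for plotted log2 ratios. Equal depth is the expected number of copies with reads after thinning. The fits were tested on simulated counts. The set block comes from the workbooks. Deviations of the 2 libraries of a set from their group means correlated at r = 0.37 over families, and with only 2 pairs both sets give the same value. Family totals of the 4 libraries were 11531 to 23528 reads, so families with few reads have wide intervals. Copies on contigs listed in set 1 only (8975) were left out of the comparisons of copies, but their 125 and 71 reads are part of the set 1 family counts (the sums match in 50 of 51 families with such reads), and 1 line in a copy table of each set was not analysed here. No sequence is printed, since no hg19 genome was used here.

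Members, family lists and tests were chosen with earlier results of these data known. Named families were drawn mainly from lists, and not every member of a list is named. Listed were all families past the threshold and all LTR12, HERV9 and HERV-Fc families. The 10 highest and 10 lowest joint changes with the same direction in both sets, among those with 100 or more reads, were also listed. Further lists held the largest changes of breadth (10 higher, 5 lower) and of the first copy's share (5 lower, and the 1 family higher in both sets). Named copies were drawn likewise from the 10 highest and 10 lowest changes, the most-read copy of each library and the 10 gained copies with most reads. LTR5_Hs, HERVH-int, HERV17-int, single LTR12C and MSTB2 copies and the copies lost in both sets were chosen after their values were seen.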

Additional observations from a re-analysis of the deposited data

Results flagged for a closer look

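Reads of 2 families lay above the PBS level on contigs that only set 1 lists. These contigs entered no comparison of copies, but their reads are part of the set 1 family counts, 14 of 286 and 19 of 1807 reads for LTR12C and 2 of 336 and 14 of 78 for ERV3-16A3_I-int. ERV3-16A3_I-int held 2 reads in PBS and 14 after 5-Aza-CdR there, a ratio of 14.0 per family read (95% interval 3.23 to 127.3, counting error only). Its reads lay on 9 of 312 listed copies, all 9 on alternate haplotypes of chromosome 6, with at most 3 reads each. LTR12C held 14 reads in PBS and 19 after 5-Aza-CdR, a ratio of 2.72 (1.29 to 5.87), on 19 of 84 copies, of which 16 lie on chromosome 6 haplotypes. Set 2 lists no such contigs, so neither value has a second library. No group had 4 or more libraries, so libraries were not tested for outlying values.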

How the results depend on the processing

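Counts of families called moved from 5 to 11 with total reads as library size (6 higher, 5 lower), 11 without a filter on low counts, 0 with PBS and 5-Aza-CdR libraries alone and between 1 and 75 when 1 library was left out. Without the set as a replicate block it was 0 families (20 at an unadjusted p under 0.05), 2 families by copies with reads and 0 copies (87 at an unadjusted p under 0.05). Families called by copies with reads numbered 2 by DESeq2, 0 with total reads, 1 with the 4 libraries alone and 0 to 15 with 1 library left out. Copies called numbered 13 by DESeq2, 9 with the 4 libraries alone, 31 with at least 60 reads and 4 to 99 with 1 library left out. The log2 change of the MLT1A1 copy on chromosome 5 lay between -3.55 and 0.71 with 1 library left out, and was above 0 without PBS replicate 2, which held 121 of its reads.

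Families at least 2-fold higher and lower numbered 50 and 3 by tRNA reads in set 1, and 9 and 4 relative to the median family in set 2. The LTR12 and HERV9 ratio of set 1 was 12.4 from reads at copies and 5.87 without the most-read copy. The LTR12C breadth ratio was 3.31 at 5 or more reads and 1.67 at equal depth in set 1, and 6.29 at 2 or more reads, 22.4 at 5 or more and 1.02 at equal depth in set 2. Outside LTR12 and HERV9 it turned to 0.381 at 2 or more reads and 0.0690 at 5 or more in set 1 and 0.917 at 5 or more in set 2, and was 2.12 and 1.04 at equal depth, 1.67 and 1.04 at equal depth without HERVE_a-int and MER11B, and 1.04 at 2 or more reads in set 2. Gained copies at 3 or more reads numbered 380, 699 and 61 (set 1, set 2, both) and 14, 71 and 5 at 10 or more. Lost copies numbered 2015, 235 and 20, and 192, 6 and 0. The cause of these changes was not tested, except that stricter read minimums keep fewer copies.

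The numbers of libraries and reads limit all of this. Each set holds 1 library per treatment, family totals are 11531 to 23528 reads, and most copies with reads hold 1 read in 3 of the 4 libraries, so the absence of a read at a copy does not show that it is silent. No total RNA library was analysed here, so capture by J2 and RNA level cannot be told apart.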
